A study of Oryctolagus cuniculus with 12 samples.

Results

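The genes described here are 34 genes of the ATF4 stress response and of tRNA charging, and they were chosen by symbol from a table of 20566 rabbit genes. A row was found for 33 of them, and CARS, the cytosolic cysteine-tRNA ligase, had none under that symbol. The 33 genes comprised 5 stress factors and feedback genes (ATF4, DDIT3, DDIT4, TRIB3, CHAC1), 6 enzymes of amino acid and folate metabolism (ASNS, PHGDH, PSAT1, PSPH, SHMT2, MTHFD2), 3 subunits of amino acid transporters (SLC7A5, SLC7A11, SLC3A2), VLDLR and STC2, and 17 cytosolic tRNA ligases. RNA was sequenced from the conjunctiva of female Japanese white rabbits in 12 libraries, 3 in each of 4 groups. Trabeculectomy (TL) with mitomycin C, a DNA crosslinker that limits scarring, was done in right eyes. The conjunctiva over the filtration bleb was taken 3 hours later in TL3h, 3 days later in TL3d and 14 days later in TL14d. The control group was conjunctiva of left eyes, which were not operated on. Per the study's methods each operated eye also received betamethasone, a glucocorticoid, by injection and an antibiotic ointment of erythromycin and colistin, so the effects of surgery, mitomycin C and these drugs cannot be told apart. The time at which the control tissue was taken and the operated eye it belongs to are not given in the sources used here, and a p-value measures only the spread among these libraries.

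In the integrated stress response, kinases that sense uncharged tRNA, misfolded protein, heme or viral RNA phosphorylate the initiation factor eIF2. Translation then falls in general, while that of the ATF4 mRNA rises, so the level of ATF4 mRNA and the activity of the protein can differ. ATF4 binds DNA with C/EBP family partners and is known to drive genes for amino acid uptake, amino acid synthesis, mitochondrial folate metabolism and the ligases that load amino acids onto tRNA. TRIB3 and DDIT3 (CHOP) lie downstream of ATF4, and TRIB3 feeds back on it. No sequence is printed, since the sources used here held none for these genes.

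The total estimated count per library ranged from 27111276 to 38591374, and the 33 genes held 0.181% to 0.416% of it. Levels between libraries are given as CPM, the count per 1000000 counts, with library sizes adjusted by TMM, a scaling that takes most genes as unchanged. A library with 0 counts of a gene could still hold up to 3 by chance of counting alone, or 0.0712 to 0.124 CPM. All 33 genes passed the filter on low counts, CHAC1 only through its operated libraries, so that its place in the counts below is no evidence. Libraries of a group differed in these genes. Control replicate 3 was the highest of its group for 21 of the 33 genes, TL3d replicate 1 likewise for 21 and TL14d replicate 2 for 22. Control replicate 1, TL3h replicate 1 and TL3d replicate 3 were each the lowest of their group for 18. TL14d replicate 1 was the lowest of its group for 24 genes, and its log2 levels over all genes tested correlated on average at 0.969 with the control libraries but at 0.914 with the other TL14d libraries. Control replicate 3 and TL14d replicate 1 were also left out together, a pair chosen after values were seen.

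Markers of some cell types also moved with the groups, whereas those of T cells overlapped in all 4. The summed CPM of 7 neutrophil genes lay between 4.98 and 81.2 in the control group, 1035 and 2754 in TL3h, 253 and 892 in TL3d, and 4.27 and 2074 in TL14d. MMP9, which other cells also make, held 1992 of the 2074. Without it the other 6 genes summed to 4.84 to 79.1 in the control group, 996 to 2666 in TL3h, 119 to 723 in TL3d and 4.03 to 101 in TL14d. Of these 6, LCN2 did not follow the sum, with 0.527 to 1.57 CPM in the control group and 0.370 to 0.550 in TL3d. For 6 monocyte and macrophage genes the ranges were 69.1 to 604, 647 to 987, 1287 to 2067, and 89.6 to 450. Those of 6 fibroblast genes were 12161 to 76287, 105042 to 125553, 1328 to 64685, and 11014 to 57032. Those of the 4 epithelial genes with a row (of 7 listed), which mark the surface of conjunctiva, were 3710 to 7913, 3901 to 6368, 5962 to 15901, and 8074 to 12346, so epithelium was present in each library. For 3 plasma cell genes (JCHAIN, MZB1 and XBP1, of which XBP1 is also a gene of the unfolded protein response) they were 332 to 2612, 2448 to 3825, 471 to 2027, and 436 to 2062. Those of 3 T cell genes were 5.82 to 14.2, 5.27 to 10.6, 4.43 to 10.9, and 5.72 to 9.73. The 3 skeletal muscle genes with a row summed to 178 in control replicate 2 and 265 in TL3d replicate 3, against at most 6.80 in the other 10 libraries. No marker on these lists that had a row was at 0 in every library. In bulk tissue, more cells of a type and more RNA per cell cannot be told apart, and the part of these cell types in the results that follow was not tested.

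**Figure D1:**
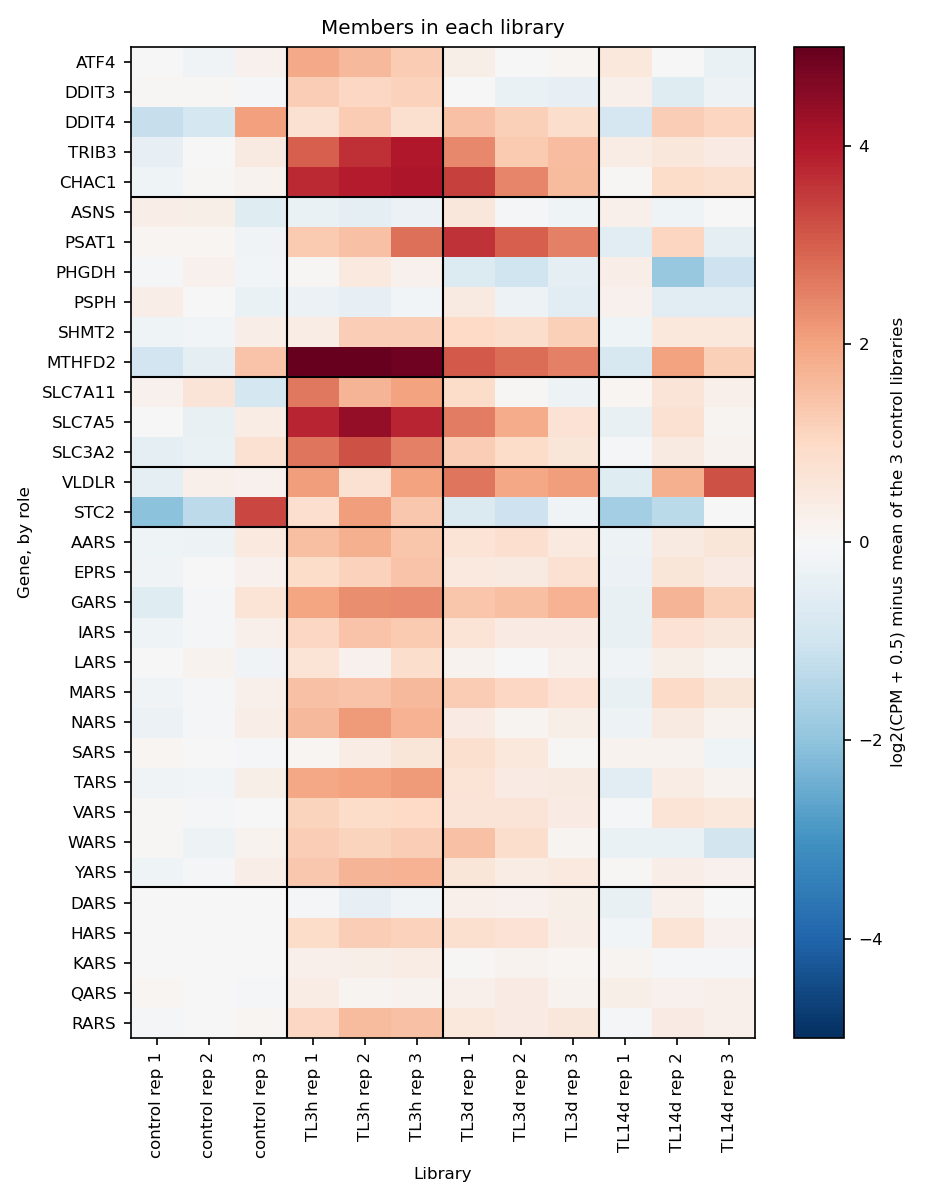
Heat map of the 33 genes (rows, grouped by role) in the 12 libraries (columns). Colour is log2(CPM + 0.5) minus the mean of the 3 control libraries of that gene. TL3h is red for most rows, MTHFD2 most deeply, whereas STC2 and DDIT4 are high in control replicate 3.

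At 3 hours, 24 of the 33 genes were higher than in the control group and 0 were lower. Among all 14835 genes tested, 23.2% were higher and 22.2% were lower in that comparison. The test was edgeR's quasi-likelihood test with a Benjamini-Hochberg adjusted p under 0.05 (called q below) over all genes tested. At an unadjusted p under 0.05, 25 of the genes were higher and 0 lower, beside 26.3% and 26.0% of all genes, and DESeq2 gave the same counts of 25 and 0, beside 24.3% and 26.5%. The median log2 fold change was 1.26 over the 33 genes and 0.02 over all genes tested. Without CHAC1, 23 of 32 genes were higher and 0 lower, with a median of 1.22. Where libraries were scaled by size only, the median of all genes moved to -0.47, and 20 of the 33 genes were higher and 2 lower, beside 12.7% and 38.2% of all genes. Without control replicate 3 and TL14d replicate 1, 25 genes were higher and 1 was lower, beside 24.8% and 25.5% of 15056 genes tested.

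ATF4 (chromosome 4, 84044779 to 84046813, minus strand, in the deposited OryCun2.0 coordinates used throughout) encodes the transcription factor after which the response is named. Its CPM was 25.7, 22.9 and 30.8 in the control libraries, 99.6, 82.7 and 63.3 in TL3h, 32.1, 26.1 and 28.2 in TL3d, and 37.7, 25.9 and 20.7 in TL14d. The TL3h libraries were all above every other library, and the other 3 groups overlapped. ATF4 rose by 1.63 ± 0.24 (SE) on the log2 scale at 3 hours (q = 0.000498, edgeR), and its log2 fold change was 0.12 ± 0.24 at 3 days (q = 0.739) and 0.09 ± 0.24 at 14 days (q = 0.918).

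DDIT3 encodes CHOP, a C/EBP family partner of ATF4 that is linked to cell death under lasting stress. Its CPM was 15.5, 15.3 and 13.6 in the control group and 35.2, 31.1 and 33.4 in TL3h, and between 9.54 and 17.5 in the 6 later libraries. It rose by 1.17 ± 0.21 on the log2 scale at 3 hours (edgeR q = 0.00168). DDIT3 and MARS, the methionine-tRNA ligase, overlap by 60 bases on opposite strands, and whether counting used strand is not given in the sources used here. All of their counts were fractions, so both values carry this uncertainty.

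TRIB3 (chromosome 4, 8007179 to 8017662, plus strand), a pseudokinase of the feedback on ATF4, was low in the control group, with 0.736, 1.10 and 1.73 CPM. It stood at 12.4, 20 and 26.1 CPM in TL3h, 8.17, 3.51 and 4.30 in TL3d, and 1.65, 1.93 and 1.69 in TL14d. TL3h and TL3d did not overlap with each other or with the control group, and TL14d lay within or just above the control range. The rise was 4.03 ± 0.45 on the log2 scale at 3 hours (q = 0.000124, edgeR) and 2.16 ± 0.42 at 3 days (q = 0.0143).

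CHAC1 (chromosome 17, 31129061 to 31132394, minus strand), an enzyme that breaks down glutathione, was scarce in the control group. Its control libraries held 0, 4 and 6 counts, or 0, 0.10 and 0.15 CPM, near the limit of detection. In TL3h it reached 7.15, 8.30 and 9.15 CPM, in TL3d 5.62, 2.62 and 1.22, and in TL14d 0.101, 0.598 and 0.521. The fitted log2 fold changes of 6.57 at 3 hours and 5.19 at 3 days depend on the few control counts, and no q is given for them, since the gene entered the test through its operated libraries.

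DDIT4 (REDD1), an inhibitor of mTORC1, was not called at any time. Its control libraries held 22.9, 27.4 and 214 CPM, and its 6 TL3h and TL3d libraries 87.5 to 145 CPM, above the first 2 controls and below the third. Without control replicate 3 its log2 fold change at 3 hours was 1.96 (q = 0.0152), and over all alternatives q ranged from 0.000354 to 0.989. The call for DDIT4 therefore rested on that library. Its log2 fold change at 3 hours turned from 0.21 to -0.23 with library size only, without a call on either scale. It was also below 0 without control replicate 1 (-0.25), control replicate 2 (-0.22) or TL3h replicate 2 (-0.02), again without a call.

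**Figure D2:**
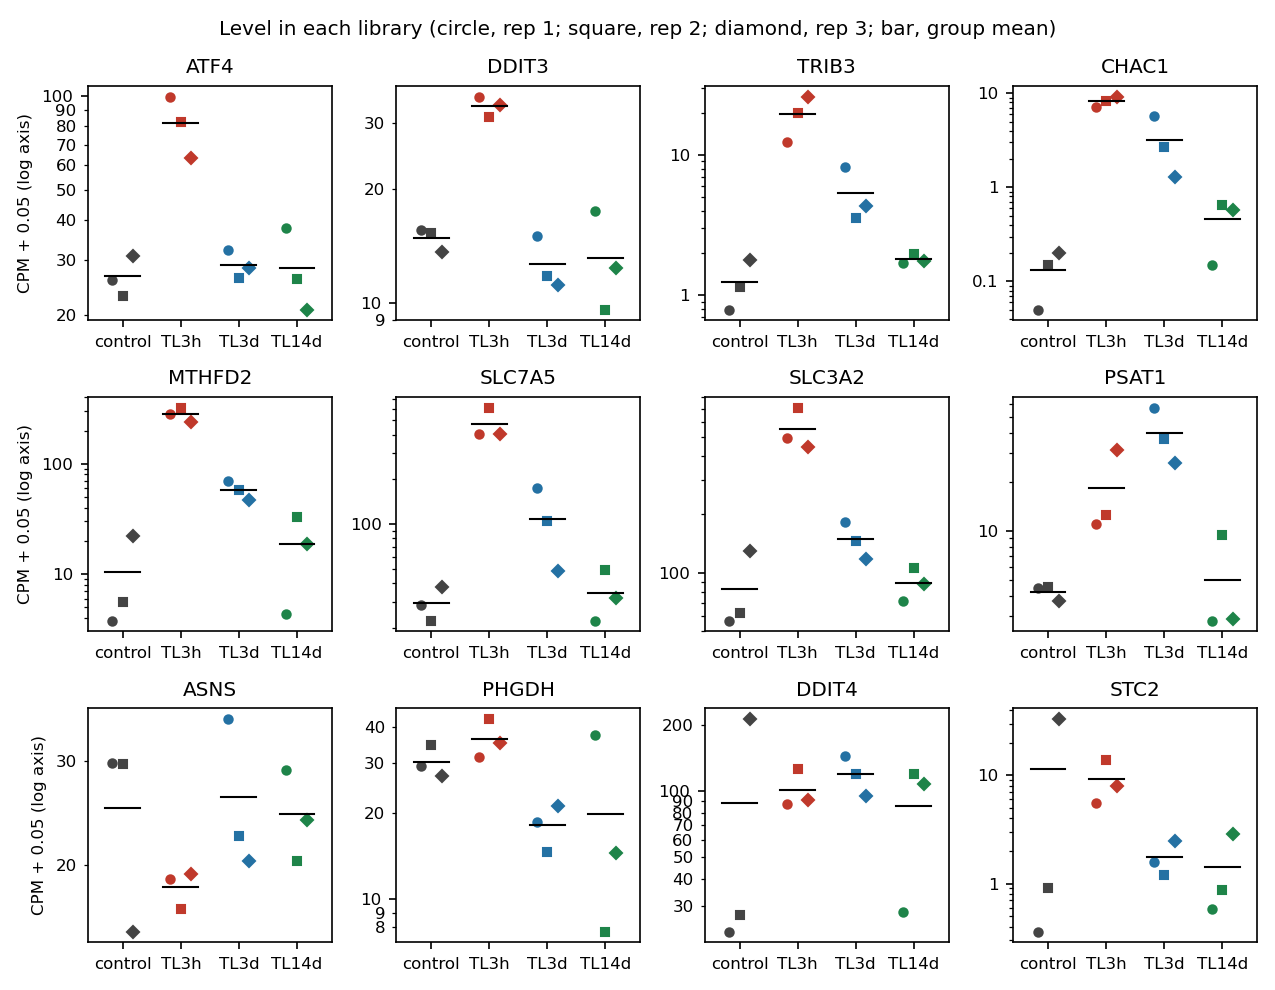
CPM + 0.05 on log axes for 12 of the genes, with a marker for each library and a bar at each group's mean. ATF4 and DDIT3 stand apart in TL3h only, whereas TRIB3, CHAC1, MTHFD2 and PSAT1 are also above every control library in TL3d. Control replicate 3 is the highest library for DDIT4 and STC2.

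The 3 transporter subunits rose at 3 hours. SLC7A5 (LAT1), the carrier of large neutral amino acids such as leucine, had 28.3, 22.3 and 37.6 CPM in the control group, 404, 610 and 405 in TL3h, 174, 105 and 48.3 in TL3d, and 22.3, 49.3 and 31.8 in TL14d. The lowest TL3h library was thus more than 10 times the highest control library. The change was 4.01 ± 0.49 on the log2 scale at 3 hours (q = 0.000198, edgeR) and 1.89 ± 0.45 at 3 days (q = 0.0232). SLC3A2 (CD98 heavy chain), the partner that brings SLC7A5 and SLC7A11 to the cell surface, had 56.6, 61.7 and 130 CPM in the control group and 496, 708 and 443 in TL3h. It rose by 2.73 ± 0.35 at 3 hours (edgeR q = 0.000243). Its level was 182, 146 and 118 CPM in TL3d, of which the lowest was below control replicate 3 (log2 fold change 0.85 ± 0.33, q = 0.0984). SLC7A11 (xCT), which exchanges glutamate for cystine, the precursor of glutathione, was scarce throughout. It had 1.26, 1.83 and 0.326 CPM in the control group and 8.92, 4.36 and 5.49 in TL3h, a rise of 2.46 ± 0.62 (q = 0.00924, edgeR), and 0.768 to 2.30 CPM in the later libraries. Per transcript length, in the authors' FPKM values, SLC7A5 stood at 0.252 ± 0.070 (SD, n = 3) of SLC3A2 in the control group, 0.567 ± 0.032 in TL3h, 0.455 ± 0.179 in TL3d and 0.250 ± 0.051 in TL14d. The TL3h ratios, between 0.536 and 0.601, were all above the control ratios, between 0.190 and 0.329.

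The metabolic enzymes split. MTHFD2 (chromosome 2, 112298878 to 112311262, minus strand), a mitochondrial enzyme of folate metabolism, had 3.73, 5.5 and 21.9 CPM in the control libraries and 281, 322 and 240 in TL3h. It stood at 69.2, 57.2 and 46.6 CPM in TL3d and at 4.30, 32.8 and 18.6 in TL14d. The operated libraries at 3 hours and 3 days were all above the controls, while TL14d overlapped with them. MTHFD2 rose by 4.76 ± 0.83 on the log2 scale at 3 hours (q = 0.00126, edgeR) and by 2.47 ± 0.75 at 3 days (q = 0.0474, between 0.00146 and 0.142 over the alternatives). SHMT2, the mitochondrial serine hydroxymethyltransferase that acts just before MTHFD2, rose by 1.0 ± 0.28 at 3 hours (edgeR q = 0.0153) and 1.02 ± 0.28 at 3 days (q = 0.0358). Its control libraries had 15.1 to 22.5 CPM, TL3h 22.9, 41.8 and 42.5, and TL3d 32.5 to 41.0, and TL3h replicate 1 lay just above the highest control. The call of SHMT2 at 3 hours was lost without control replicate 1 or 2 or TL3h replicate 2 or 3. In FPKM, MTHFD2 stood at 0.214, 0.296 and 0.846 times SHMT2 in the control libraries and at 10.7, 6.70 and 4.91 times SHMT2 in TL3h. The order of these 2 enzymes was therefore reversed in every TL3h library.

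Of the 3 enzymes of serine synthesis, only PSAT1, which carries out the middle step, was called. PSAT1 (chromosome 1, 64697975 to 64728069, plus strand) had 4.44, 4.45 and 3.66 CPM in the control group, 11, 12.4 and 31.4 in TL3h, 57.2, 36.8 and 26.1 in TL3d, and 2.76, 9.35 and 2.83 in TL14d. Unlike most of the other genes its mean was higher at 3 days than at 3 hours, although the TL3h and TL3d libraries overlapped and the difference of 1.13 ± 0.55 was not called (q = 0.128, edgeR). Against the control group it rose by 2.13 ± 0.56 at 3 hours (q = 0.0115) and 3.26 ± 0.59 at 3 days (q = 0.0119), and the call at 3 hours was lost without TL3h replicate 3 (q = 0.0573, from 0.000829 up to that value over the alternatives). PHGDH, the first enzyme of the path, had 27.0 to 34.6 CPM in the control group, 31.5 to 42.9 in TL3h and 18.7, 14.7 and 21.2 in TL3d (0.27 at 3 hours, or -0.24 with library size only; log2 fold change at 3 days -0.74 ± 0.45, q = 0.264). PSPH, the last enzyme, lay between 9.39 and 19.6 CPM in all libraries, with log2 fold changes of -0.31 ± 0.32 at 3 hours (edgeR q = 0.458) and -0.09 ± 0.32 at 3 days (q = 0.864). PSAT1 was 0.107 to 0.127 times PHGDH per length in the control libraries and 1.03 to 2.55 times PHGDH in TL3d, and the summed FPKM of the 3 enzymes was 26.6 ± 4.3 (SD, n = 3) and 36.0 ± 10.6. ASNS, asparagine synthetase, is among the best known ATF4 targets, and it was not called at any time. Its CPM was 29.8, 29.7 and 15.4 in the control group and 18.9, 16.8 and 19.3 in TL3h, with a log2 fold change of -0.44 ± 0.29 at 3 hours (q = 0.234, edgeR). Without control replicate 3, ASNS was called lower at 3 hours (-0.75, q = 0.031, with a range of 0.0249 to 0.509 over all alternatives).

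VLDLR, a lipoprotein receptor, and STC2, a secreted stanniocalcin, are both known ATF4 targets. VLDLR had 7.59, 12.7 and 12.3 CPM in the control group, 47.4, 18.3 and 44.7 in TL3h, 71.3, 41.9 and 47.1 in TL3d, and 6.82, 38.0 and 101 in TL14d. The TL3h and TL3d libraries were all above the controls, but no time point was called, with log2 fold changes of 1.76 ± 0.74 (q = 0.0787, edgeR), 2.29 ± 0.76 (q = 0.061) and 2.16 ± 0.75 (q = 0.405). DESeq2 called it at 3 hours and at 3 days. STC2 had 0.309, 0.850 and 33.3 CPM in the control group and 5.54, 13.9 and 7.94 in TL3h. Its log2 fold change at 3 hours was -0.33 ± 1.30 (edgeR q = 0.858) with all libraries and 3.92 (q = 0.0061) without control replicate 3. With all libraries and the replicate number as a block it was 1.40 (q = 0.423), so its direction depended on that library and on the model. Over all alternatives that q ranged from 0.00381 to 0.961.

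Of the 17 tRNA ligases, 14 rose at 3 hours and 0 fell, and the counts were also 14 and 0 at an unadjusted p under 0.05 and by DESeq2. The shares of all genes called were 23.2% and 22.2%. With library size only, 11 were higher and 1 lower, beside 12.7% and 38.2%. Of the 12 ligases that are usually listed as ATF4 targets, 11 were higher, and of the other 5 (DARS, HARS, KARS, QARS, RARS) 3 were higher, and the difference between these sets was not tested. The largest changes were those of GARS (glycine; 2.14 ± 0.48, q = 0.00487, edgeR), TARS (threonine; 2.02 ± 0.23, q = 0.000126) and NARS (asparagine; 1.83 ± 0.23, q = 0.000214). TARS had 80.5, 83.1 and 112 CPM in the control group and 349, 368 and 398 in TL3h. NARS had 63.7, 76.7 and 101 CPM and 242, 352 and 266. GARS had 26.9, 38.0 and 66.6 CPM and 163, 205 and 211, with no overlap for any of the 3 genes.

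YARS (tyrosine), AARS (alanine), MARS, RARS (arginine) and IARS (isoleucine) rose by between 1.26 and 1.62 on the log2 scale at 3 hours. YARS had the lowest q of the 33 genes (8.81e-05, edgeR), with 29.2, 31.1 and 42.0 CPM in the control group and 87.4, 112 and 115 in TL3h. EPRS (glutamate and proline), WARS (tryptophan), HARS (histidine) and VARS (valine) rose by 1.02 to 1.18. HARS had 30.6, 31.5 and 31.6 CPM in the control group and 58.9, 73.1 and 70.2 in TL3h. LARS (leucine) rose by 0.60 ± 0.19 (q = 0.0258), with 121 CPM in TL3h replicate 2 and 120 in control replicate 2. Its call was lost without control replicate 1 or 3, without TL3h replicate 1 or 3 and with library size only (0.09, q = 0.726), which also ended the calls of SHMT2 and WARS.

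The ligases that moved least were KARS (lysine), SARS (serine), QARS (glutamine) and DARS (aspartate). KARS was called at 3 hours with 0.30 ± 0.11 (edgeR q = 0.041), on 187 to 194 CPM in the control group and 230 to 245 in TL3h, but its log2 fold change was -0.21 (q = 0.182) when libraries were scaled by size only. Its q ranged from 0.00705 to 0.208 over all alternatives, so its direction depends on the scaling. SARS changed by 0.36 ± 0.20 (q = 0.165), QARS by 0.23 ± 0.11 (q = 0.127), both of which turned with library size only (-0.14 and -0.28), and DARS by -0.22 ± 0.15 (q = 0.255, edgeR). DARS had 51.7, 41.4 and 48.5 CPM in TL3h, all below the 54.4, 55.2 and 55.4 of the control group, and it was called lower with library size only (-0.72, q = 0.00293), as was ASNS (-0.96, q = 0.0252).

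For the cysteine ligase, 2 rows on unplaced sequence carry the description of a cytoplasmic cysteine ligase under other names, and they were singled out after their annotation and values were seen. The gene ID of LOC100350061 belongs to CARS1 in the RefSeq table of another rabbit assembly (mOryCun1.1). That row had 36.6, 29.6 and 35.7 CPM in the control group and 82.9, 84.7 and 85.2 in TL3h, a rise of 1.31 ± 0.19 (q = 0.000434, edgeR). LOC103347359 rose by 0.75 ± 0.14 (q = 0.00195). Neither is among the 33 genes or their counts, and reads could be split between such copies.

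**Figure D3:**
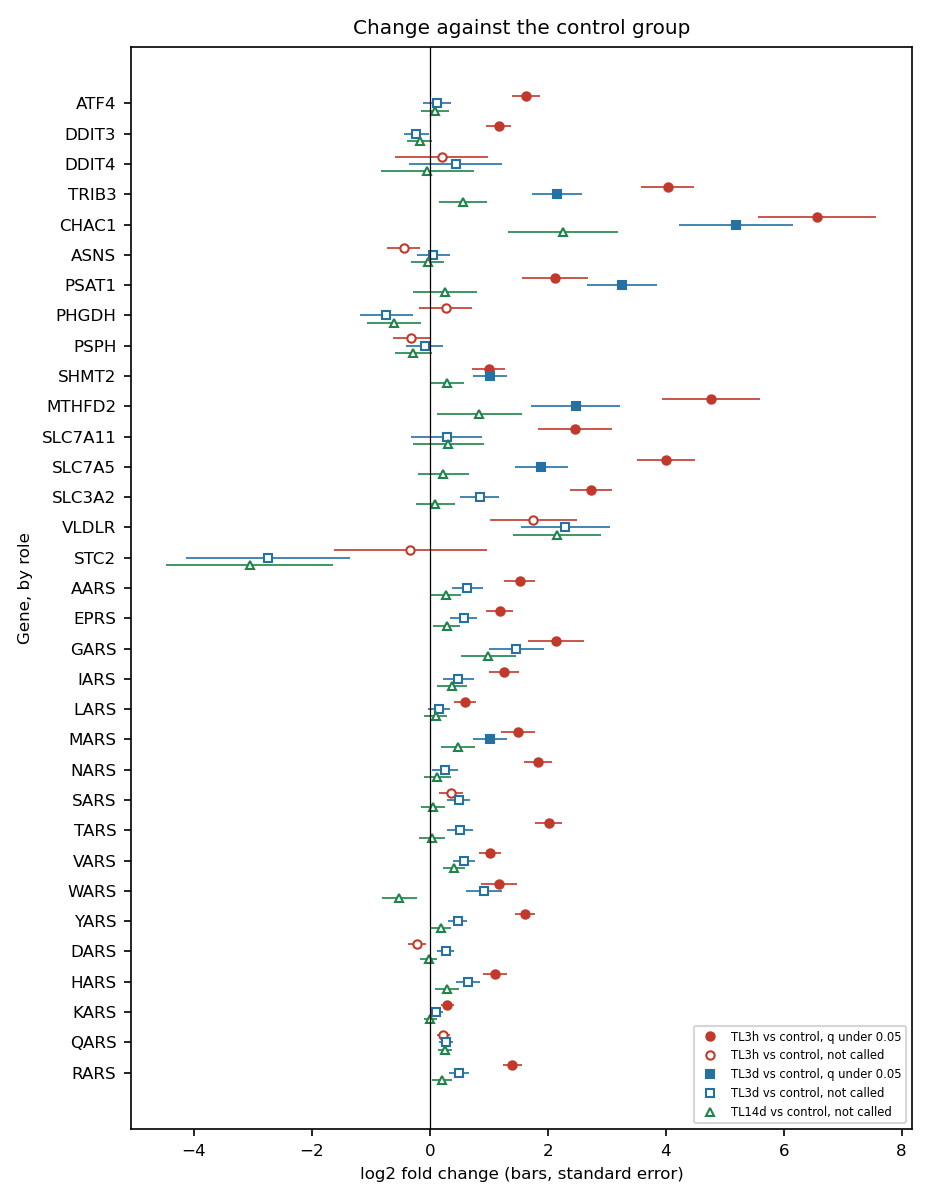
Log2 fold change of each of the 33 genes against the control group at 3 hours (circles), 3 days (squares) and 14 days (triangles), with standard errors as bars and filled markers for q under 0.05. At 3 hours 24 circles are filled, at 3 days 7 squares, and at 14 days no triangle.

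At 3 days, 7 of the 33 genes were above the control group and 0 were lower, beside 10.6% and 7.0% of all genes tested. The 7 genes were TRIB3, CHAC1, PSAT1, SHMT2, MTHFD2, SLC7A5 and MARS, and the median log2 fold change over the 33 genes was 0.50, against 0.00 over all genes. Without CHAC1, 6 of 32 genes were higher, with a median of 0.49. At an unadjusted p under 0.05, 20 were higher and 0 lower, beside 19.5% and 16.7% of all genes, and DESeq2 called 15 and 0, beside 16.2% and 13.9%. MARS, the only ligase called, had 25.3, 27.1 and 34.6 CPM in the control group, 79.4, 77.3 and 88.9 in TL3h, and 69.6, 58.9 and 48.1 in TL3d (1.02 ± 0.29 on the log2 scale, edgeR q = 0.0383). Of the 17 ligases, DESeq2 called 8 higher, beside 16.2% of all genes, and 12 were higher at an unadjusted p under 0.05, beside 19.5%. Without control replicate 3 and TL14d replicate 1, 10 were higher, beside 14.4%, and 0 were lower each time. All 17 ligases had a log2 fold change above 0 at 3 days, from 0.11 (KARS) to 1.46 (GARS), beside 7396 of the 14835 genes tested. HARS (q = 0.0508), VARS (q = 0.0539) and GARS (q = 0.0562) lay just outside the threshold. The count at 3 days moved with single libraries. It was 0 without control replicate 2, where 370 genes were called in all, against 2608 with every library. It was 2 without control replicate 1 (491 genes in all) or TL3d replicate 1 (449) and 3 without TL3d replicate 2 (359). It was 12 without control replicate 3 (2215) and 14 without TL14d replicate 1 (3778). PSAT1 lost its call only without control replicate 2, with a q of 0.0511, the highest over its alternatives. Without control replicate 3 and TL14d replicate 1, 19 genes were higher and 0 lower, beside 14.4% and 11.2% of 15056 genes.

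At 14 days, 0 of the 33 genes were called in either direction, as were 0 of the 14835 genes tested (0.00% higher and 0.00% lower). The median log2 fold change was 0.21, against 0.02 over all genes, and 25 of the 33 were above 0, beside 7742 of the 14835. At an unadjusted p under 0.05, 4 genes were higher (VLDLR, QARS, VARS and, with the limit of its filter, CHAC1) and 0 lower, beside 6.96% and 3.41% of all genes, and DESeq2 called 0, beside 1.95% and 0.519%. The count changed when TL14d replicate 1 was left out. For GARS the TL14d libraries had 31.3, 135 and 94.0 CPM, for MTHFD2 4.30, 32.8 and 18.6, and for EPRS 86.1, 159 and 141. Replicate 1 was within or below the control range each time, and for MTHFD2 replicate 3 was within it too. Without TL14d replicate 1, VLDLR (2.67, edgeR q = 0.0246) and VARS (0.61, q = 0.0253) were higher and PHGDH (-1.45, q = 0.0289) was lower, beside 3.51% and 1.22% of 15114 genes tested. In that fit GARS, MTHFD2 and EPRS were not called. Without control replicate 3 as well, 8 genes were higher (AARS, DDIT4, GARS, IARS, MARS, MTHFD2, VARS and VLDLR) and PHGDH was lower, beside 4.49% and 2.15%. EPRS, ATF4, TRIB3, SLC7A5 and SLC3A2 were not among them.

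Between the operated groups the TL3h libraries set the pattern. From 3 hours to 3 days, 13 of the 33 genes were lower, beside 19.0% of all genes tested, and 1 was higher, beside 18.4%. The genes that fell were ATF4, DDIT3, TRIB3, MTHFD2, the 3 transporter subunits, AARS, IARS, NARS, RARS, TARS and YARS. ATF4 fell by 1.51 ± 0.24 on the log2 scale (q = 0.000992, edgeR), NARS by 1.57 ± 0.23 (q = 0.000583) and SLC7A11 by 2.17 ± 0.62 (q = 0.0197). DARS was the gene that was higher, by 0.49 ± 0.15 (q = 0.0263), with 65.9, 64.4 and 68.0 CPM in TL3d, all above the TL3h and the control libraries. With library size only, the counts were 8 lower and 5 higher (ASNS, DARS, PSAT1, QARS and SARS), beside 8.31% and 34.2% of all genes, whose median was then 0.43. ATF4, DDIT3, TRIB3, NARS, TARS, YARS, SLC3A2 and SLC7A5 were the 8 that were lower on that scale. SHMT2 was not called between these times (q = 0.953). Without TL3d replicate 3, 9 genes were lower and 0 higher, where 4971 genes were called in all, against 5537 with every library. The call of DARS was lost in 5 of 21 alternatives, namely the likelihood ratio test and without TL3h replicate 2 or TL3d replicate 1, 2 or 3 (q up to 0.0672).

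At 14 days 21 genes were below TL3h and 0 above, beside 22.3% and 22.9% of all genes. At an unadjusted p under 0.05 the counts were 24 and 0, beside 26.0% and 26.8%. Without CHAC1, 20 of 32 genes were below. KARS was called lower (-0.29, q = 0.046, edgeR) but stood at 0.20 (q = 0.196) with library size only, and 4 of 21 alternatives kept its call. With library size only, 14 were below and 3 above (ASNS, DARS and QARS), beside 11.3% and 38.9% of all genes, whose median was then 0.49. Apart from CHAC1, the largest falls were those of MTHFD2 (-3.92 ± 0.80, q = 0.00303, edgeR), SLC7A5 (-3.78 ± 0.49, q = 0.000261) and TRIB3 (-3.47 ± 0.44, q = 0.000241). From 3 days to 14 days, 2 genes were lower, PSAT1 (-3.0 ± 0.58, q = 0.0349) and WARS (-1.43 ± 0.31, q = 0.0459), and 0 were higher, beside 1.59% and 0.647% of all genes. Both calls were lost without control replicate 1 or 2, TL3d replicate 1 or 2, or TL14d replicate 1 or 3, and in the fit of the 6 libraries alone or with the replicate number as a block. In that order, 186, 92, 2, 0, 67, 2, 15 and 288 genes were called in all, against 332 with the reported settings. Over the alternatives q ranged from 1.33e-05 to 0.12 for PSAT1 and from 0.00049 to 0.154 for WARS. In a test over the 4 groups together, 22 of the 33 genes were called, beside 52.4% of all genes tested. These comparisons and those with the control group share libraries.

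WARS, which is known also as an interferon-induced gene, had a course of its own. Its CPM was 299, 240 and 322 in the control group, 667, 620 and 665 in TL3h, 793, 521 and 310 in TL3d, and 225, 228 and 149 in TL14d. The TL14d libraries were all below the controls, without a call (-0.52 ± 0.30, edgeR q = 0.579). It had a pair of transcript models of 2439 and 2459 bases. The shorter model took 53.7%, 45.0% and 52.5% of the gene's transcript counts in the control group, 65.7%, 70.0% and 61.7% in TL3h, 66.3%, 55.9% and 47.9% in TL3d, and 32.0%, 26.4% and 17.7% in TL14d. Its share did not overlap with the control share at 3 hours, where it was higher, or at 14 days, where it was lower. With 3 libraries against 3, an exact permutation test cannot go below p = 0.1, and none was run. For VLDLR a model of 3209 bases took 30.3% to 43.1% in the control group, 51.6% to 55.1% in TL3h and 64.4% to 68.2% in TL3d, and 23.7%, 56.7% and 64.4% in TL14d. These shares are the authors' estimates of how reads divide among models with much sequence in common.

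Compared per length, in the authors' FPKM, WARS led the 33 genes in the control group (mean 108.6, range 93.2 to 117), before KARS (84.0, 78.5 to 87.1) and QARS (58.7, 52.5 to 64.1). The ranges of these 3 genes did not overlap. In TL3h the first places went to SLC3A2 (189.6, 157 to 239.7) and WARS (177.9, 165 to 186), whose ranges overlapped, followed by SLC7A5 (107.4), TARS (98.1) and MTHFD2 (93.6). In the control group SLC7A5 had been at 9.24 and MTHFD2 at 4.69 FPKM, places 24 and 27. KARS stood at 74.4 FPKM in TL3h and was thus lower than in the control group on this scale, which carries no TMM adjustment. At 14 days KARS (85.3, 80.4 to 93.8), WARS (76.9, 56.5 to 88.2) and QARS (70.6, 69.1 to 73.0) were again the first by mean. The range of WARS overlapped with those of KARS and QARS. The summed FPKM of the 17 ligases was 559 ± 21 (SD, n = 3) in the control group, 864 ± 54 in TL3h, 827 ± 128 in TL3d and 599 ± 89 in TL14d.

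The machinery upstream of ATF4 was measured with a list of 14 genes of the eIF2 kinases, eIF2, its exchange factor eIF2B and its phosphatase. At 3 hours 9 were higher and 2 lower, beside 23.2% and 22.2% of all genes tested, or 7 and 4 with library size only, beside 12.7% and 38.2%. EIF2S1, the subunit that is phosphorylated, rose by 2.02 (q = 0.000158, edgeR). PPP1R15A (GADD34) and PPP1R15B (CReP), which bring the phosphatase to eIF2, rose by 1.89 (q = 0.00231) and 1.65 (q = 4.4e-05). All counts of PPP1R15A were fractions, and how its reads were shared is not given in the sources used here. The kinases EIF2AK4 (GCN2, the sensor of uncharged tRNA) and EIF2AK1 (HRI, the heme-regulated kinase) fell by 0.67 (q = 0.042) and 0.62 (q = 0.00431). At 3 days 3 were higher (EIF2S1, EIF2B1 and EIF2S3) and 0 lower, beside 10.6% and 7.0% of all genes. Of these, EIF2S1 alone kept its call with library size only, and over 21 alternatives 17 kept that of EIF2S1, 10 that of EIF2B1 and 8 that of EIF2S3. At 14 days 0 were called, as of all genes, with 0 higher and 1 lower at an unadjusted p under 0.05 (all genes, 6.96% and 3.41%) and 0 by DESeq2 (1.95% and 0.519%). Phosphorylation of eIF2 was not measured by these data.

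Of 18 tested genes of a second list, further partners and targets of ATF4, 11 were higher and 2 lower at 3 hours (all genes, 23.2% and 22.2%), or 7 and 2 with library size only (12.7% and 38.2%). CEBPB, a binding partner, rose by 2.63 (edgeR q = 0.000477), CTH, which makes cysteine, by 2.43 (q = 0.000766), and EIF4EBP1, an inhibitor of cap-dependent translation, by 2.28 (q = 0.000615). The glycine transporter SLC6A9 fell by 1.09 (q = 0.0391) and GPT2, a mitochondrial alanine aminotransferase, by 0.87 (q = 0.0428). At 3 days 4 were higher, with SESN2 at 2.44 (q = 0.00873), CTH at 1.63 (q = 0.0214) and EIF4EBP1 at 1.13 (q = 0.0449), and GPT2 was lower (-1.80, q = 0.0114), where 10.6% and 7.0% of all genes were called. At 14 days 0 were called, as of all genes, with 1 higher and 0 lower at an unadjusted p under 0.05 (all genes, 6.96% and 3.41%) and 1 higher by DESeq2 (1.95%). A list of the unfolded protein response, the stress pathway of the endoplasmic reticulum that shares the eIF2 branch, had 14 of 18 tested genes higher and 0 lower at 3 hours, with 15 and 1 at an unadjusted p under 0.05 (all genes, 26.3% and 26.0%). The shares of all genes were 23.2% and 22.2%, and with library size only 8 were higher and 2 lower, beside 12.7% and 38.2%. XBP1, a transcription factor of another branch, rose by 2.66 (q = 0.00124, edgeR), the chaperone HSPA5 (BiP) by 2.57 (q = 0.000178) and MANF by 2.21 (q = 0.000141). At 3 days 8 were higher and 0 lower, beside 10.6% and 7.0% of all genes, led by EDEM1 (1.37, q = 0.0114). At an unadjusted p under 0.05, 12 were higher and 0 lower (all genes, 19.5% and 16.7%), as by DESeq2 (16.2% and 13.9%). Without control replicate 3 and TL14d replicate 1, 13 were higher and 0 lower (14.4% and 11.2%). At 14 days 0 were called, as of all genes, with 3 higher at an unadjusted p under 0.05 (all genes, 6.96%) and 0 by DESeq2.

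The mitochondrial tRNA ligases are encoded by separate nuclear genes, apart from GARS and KARS, which serve both compartments. Of 16 tested, 3 were higher and 7 lower at 3 hours, beside 23.2% and 22.2% of all genes. With library size only, 2 were higher and 12 lower, beside 12.7% and 38.2%. MARS2 rose by 2.78 (q = 0.000227, edgeR), YARS2 by 0.94 (q = 0.000572) and EARS2 by 0.82 (q = 0.0149, up to 0.316 over the alternatives). FARS2 fell by 1.67 (q = 0.00253), RARS2 by 1.39 (q = 0.00018) and LARS2 by 1.35 (q = 0.000164). For 12 of the 17 ligases a mitochondrial ligase of the same amino acid alone was tested, and the cytosolic log2 fold change was the larger in 11 of these pairs, MARS being the exception. Over the 12 pairs the median difference was 1.52, with 10 cytosolic ligases higher, 2 mitochondrial ones higher and 6 lower. Arginine and threonine had the widest gaps, of 2.79 each, from 1.40 for RARS against -1.39 for RARS2, and from 2.02 for TARS against -0.77 for TARS2. EPRS, which serves glutamate and proline together, and FARSB, a subunit of the phenylalanine ligase that is not among the 33 genes, were left out of the pairs. EPRS stood at 1.18 beside 0.82 for EARS2 and 0.47 for PARS2 (q = 0.303, edgeR), and FARSB at 1.38 beside -1.67 for FARS2. For aspartate both genes stood near -0.22 and neither was called. At 3 days 0 mitochondrial ligases were called, beside 10.6% and 7.0% of all genes, with 1 higher and 1 lower at an unadjusted p under 0.05 (all genes, 19.5% and 16.7%) and 0 by DESeq2 (16.2% and 13.9%). At 14 days 0 were called, as of all genes, with 0 at an unadjusted p under 0.05 (all genes, 6.96% and 3.41%) and 0 by DESeq2 (1.95% and 0.519%). All 4 tested genes for the other ligase subunits and the scaffold of the multi-ligase complex rose at 3 hours, beside 23.2% of all genes, among them FARSB (1.38, q = 0.000366), EEF1E1 (1.21, q = 0.000274) and AIMP2 (1.20, q = 0.000286). At 3 days AIMP2 was higher (0.53, q = 0.0438) and EEF1E1 lower (-0.61, q = 0.0294), but over 21 alternatives 8 kept the call of AIMP2, which DESeq2 size factors ended, and 14 that of EEF1E1, which was lost without control replicate 3 and TL14d replicate 1.

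**Figure D4:**
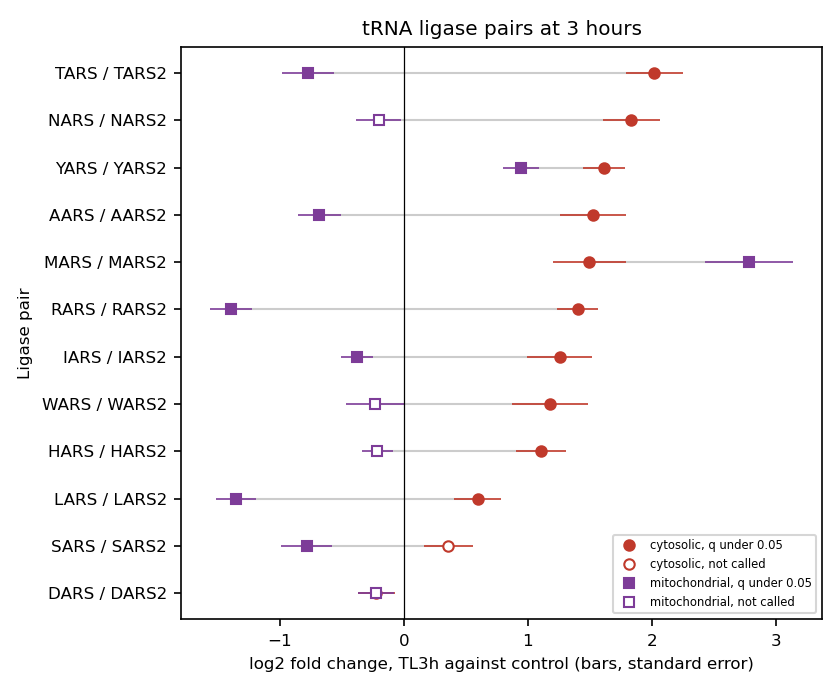
Log2 fold change at 3 hours against the control group for 12 pairs of cytosolic (circles) and mitochondrial (squares) tRNA ligases of the same amino acid, with standard errors as bars and filled markers for q under 0.05. The cytosolic ligase lies to the right of its mitochondrial counterpart in 11 of the 12 pairs, and MARS2 lies to the right of MARS.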

How the data were processed

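RNA of rabbit conjunctiva was measured in 12 libraries, which were grouped by their labels. The authors prepared stranded mRNA libraries, mapped 150 bp paired-end reads to OryCun2.0 with STAR (2.6.0c per the submitters' processing notes) and used GeneData Profiler Genome. The authors deposited estimated counts per gene and transcript, not scaled by library size, and FPKM values, scaled by length and depth. Of the gene counts 23.4% were fractions. How reads with several placements were shared and the strand setting are not given in the sources used here.

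The 34 genes and the gene lists were chosen with earlier results of these data known. Estimated counts were rounded and filtered with filterByExpr (minimum count 10, minimum total count 15), which kept 14835 of 20566 genes. All libraries entered 1 quasi-likelihood fit in edgeR 4.0.16 (R 4.3.3) with TMM and no covariate, as planned for counts. P-values were adjusted by Benjamini-Hochberg over all genes tested, with a threshold of 0.05. A standard error is the log2 fold change over the root of its F statistic, and the prior count was 0.125. The fit was tested on simulated data in which few genes changed, evenly in both directions. That simulation cannot show how the scaling behaves where as many genes change as at 3 hours. No libraries of a group were copies, since over genes their squared count differences averaged at least 75.9 times the counting variance. Values in every library were planned for ATF4 and the 4 largest changes in each direction at 3 hours and at 3 days, and those of other genes were chosen after their values were seen. From each list, the genes with the 3 largest changes in each direction were named. For 16 of the genes the authors' table gave a gene ID, and all 16 IDs were in the RefSeq table (mOryCun1.1), which was used for names only. Alternatives were DESeq2 1.42.0 and its size factors, library size only, other filters, the likelihood ratio test, the 6 libraries of a comparison alone, the replicate number as a block and leaving out each library. Leaving out control replicate 3 and TL14d replicate 1 together was added after the data were seen. A planned search of promoters for an ATF4 motif was not run, and the MicroShunt libraries were not analysed here.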

Additional observations from a re-analysis of the deposited data

Results flagged for a closer look

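The change from the control group differed between time points for these genes, by edgeR's test of the difference between the operated groups itself (q under 0.05 over all genes tested). Values are log2 differences. The control libraries cancel in the size of such a difference but enter the estimate of its spread. From TL3h to TL3d, 13 genes were lower, beside 19.0% of all genes, and 1 was higher, beside 18.4%. Among factors, enzymes and transporters these were ATF4 (-1.51), DDIT3 (-1.40), TRIB3 (-1.87), MTHFD2 (-2.29), SLC7A11 (-2.17), SLC7A5 (-2.12) and SLC3A2 (-1.88). Among the ligases they were AARS (-0.89), IARS (-0.77), NARS (-1.57), RARS (-0.90), TARS (-1.51) and YARS (-1.15). DARS was higher (0.49), a call that 16 of 21 alternatives kept.

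From TL3d to TL14d, PSAT1 (-3.0) and WARS (-1.43) were lower, beside 1.59% of all genes. Of 21 alternatives, 11 kept the call of PSAT1 and 6 that of WARS. From TL3h to TL14d, 21 genes were lower, beside 22.3% of all genes. Outside the ligases these were ATF4 (-1.54), DDIT3 (-1.34), TRIB3 (-3.47), CHAC1 (-4.31), PSAT1 (-1.87), MTHFD2 (-3.92), SLC7A11 (-2.15), SLC7A5 (-3.78) and SLC3A2 (-2.64). Among the ligases they were AARS (-1.26), EPRS (-0.90), HARS (-0.82), IARS (-0.88), KARS (-0.29), MARS (-1.02), NARS (-1.71), RARS (-1.19), TARS (-1.98), VARS (-0.61), WARS (-1.70) and YARS (-1.43). The summed CPM of 6 neutrophil genes other than MMP9 was 996 to 2666 in TL3h, 119 to 723 in TL3d, and 4.03, 81.9 and 101 in TL14d, where MMP9 alone had 0.235, 1992 and 94.3. KARS turned to 0.20 (q = 0.196) with library size only. CHAC1 passed the filter on low counts only through operated libraries, so its call is no evidence. The part of cell type in these differences was not tested.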

How the results depend on the processing

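Leaving out 1 library at a time, the number of the 33 genes called ranged from 20 to 25 for TL3h against control, 0 to 14 for TL3d, 0 to 3 for TL14d, 9 to 18 for TL3d against TL3h, 0 to 2 for TL14d against TL3d, 16 to 22 for TL14d against TL3h, and 20 to 26 over the 4 groups. In the same order, the calls among all genes ranged from 5280 to 7271, 359 to 3778 and 0 to 716 against control. Between the operated groups they ranged from 3954 to 6231, 0 to 584 and 5464 to 6798, and over the 4 groups from 6238 to 8536. The count for TL3d against control was 15 with DESeq2, where 4471 genes were called in all, and 11 with the likelihood ratio test (3154 in all). With only the 6 libraries compared it was 13, of which 12 were higher and 1 lower (3263 in all), against 7 as reported (2608 in all). The count for TL14d against TL3d was 1 with library size only (270 in all) or with no filter on low counts (251 in all). It was 5 with DESeq2 (1850 in all) or the likelihood ratio test (1106 in all). It was 0 with only the 6 libraries (15 in all) or with the replicate number as a block (288 in all), against 2 as reported (332 in all). Without control replicate 3 and TL14d replicate 1 together, the counts were 19 for TL3d, 9 for TL14d and 0 for TL14d against TL3d, beside 3859, 999 and 320 in all. With library size only, the split of lower against higher went from 13 and 1 to 8 and 5 for TL3d against TL3h, and from 21 and 0 to 14 and 3 for TL14d against TL3h. On that scale 8.31% of all genes were lower and 34.2% higher in the first comparison, and 11.3% and 38.9% in the second. The causes were not tested.

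Against the control group, and among genes called with the reported settings or under the alternative, the direction was reversed for STC2 at 3 hours without control replicate 3 (3.92 on the log2 scale, also without TL14d replicate 1, with a lowest value of -0.91 without control replicate 1), for DDIT4 at 14 days without both libraries (2.17, against -0.50 to 1.75 without single libraries) and for KARS at 3 hours with library size only (-0.21). That scaling also turned QARS (-0.28), SARS (-0.14), PHGDH (-0.24) and DDIT4 (-0.23) at 3 hours, which were not called, and KARS from TL3h to TL14d (0.20). In the replicate block fit the calls among the 33 genes were 23 at 3 hours, 10 at 3 days and 0 at 14 days, and of all genes 6946, 2719 and 0. Deviations from the group means correlated above 0.1 in 8 of 18 same-numbered pairs of libraries (range -0.153 to 0.517), and every pair was required to take the numbers as pairing. Of the 12 libraries, 7 correlated best with their own number, and the part of a shared factor was not tested. With 3 libraries a group, modest changes could be missed, and SLC7A11 and CHAC1 rest on few counts in the control libraries.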
